A study of Mus musculus with 16 samples.

Results

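The vascular basement membrane is the sheet of extracellular matrix on which endothelial cells (ECs), the lining cells of blood vessels, rest. Its RNAs were followed here through 32 genes, picked by gene name with earlier results of these data known, of the 43346 genes counted in sorted lung ECs. They are 6 collagen IV chains, 5 laminin alpha, 3 laminin beta and 2 laminin gamma chains, 2 nidogens, 3 heparan sulfate proteoglycans, 4 genes of matricellular, receptor and crosslinking proteins, and 7 genes of other endothelial matrix and elastic fibre proteins. The ECs came from FVB mice carrying a Col1a1-GFP transgene, in which sequence of a collagen I gene drives a green fluorescent protein, so that fibroblasts can be gated away. Mice of both sexes were used, per the study's methods, and the sex behind each library is not given in the sources used here. The gate kept cells with CD31 and without CD45, EpCAM or GFP, the marks of leukocytes, epithelium and collagen I-expressing cells. Mice of 2 months (young) and of 18 months (aged) received PBS (Sham) or bleomycin (Bleo), a drug that injures the lung, at about 1 U/kg into the trachea, and lungs were taken at day 30. The 16 libraries are Young Sham 21 to 25 (n = 5), Young Bleo 17 to 20 (n = 4), Aged Sham 13 to 15 (n = 3) and Aged Bleo 1, 2, 3 and 5 (n = 4), and values below are given in that order within each group.

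A basement membrane is built on networks of collagen IV and of laminin, which nidogens and the proteoglycan perlecan tie together. A collagen IV molecule winds from alpha chains, of which the products of Col4a1 and Col4a2 form the form found in nearly every vessel, while a laminin holds an alpha, a beta and a gamma chain, and the alpha chain sets most of its binding to cells. In vessels the laminin alpha chains are mainly those of Lama4 and Lama5. In the lung the capillary and alveolar basement membranes are partly fused into a single thin sheet, and fibroblasts, pericytes, smooth muscle and epithelium also make many of these proteins.

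Total counts ranged from 20.9 to 71.0 mega-counts per library, and all 32 members had enough reads to be tested in each of the 6 comparisons. The gate was checked against marker genes. All 8 endothelial markers (Pecam1, Cdh5, Kdr, Tie1, Cldn5, Esam, Emcn and Ramp2) were above 1 FPKM (fragments per kilobase of gene length, scaled to the size of the library) in every library. Their sum was 2673 to 3179 FPKM in Young Sham against 1558 to 2133 in Young Bleo, and 2301 to 2611 in Aged Sham against 1452 to 2189 in Aged Bleo. Its largest part was Cldn5, at 1451 to 1720 FPKM in Young Sham against 705 to 1032 in Young Bleo. In aged mice Cldn5 was at 1286 to 1447 against 614 to 1129 FPKM. Emcn went the other way in young mice (41.4 to 66.4 against 67.4 to 93.4 FPKM). Tie1 and Pecam1 overlapped between Sham and Bleo at either age. Markers of other cells moved with the groups as well. The sum of 9 macrophage and leukocyte markers was 23.2 to 39.8 FPKM in Young Sham against 146 to 421 in Young Bleo, and 52.5 to 161 in Aged Sham against 1336, 762, 339 and 193 in Aged Bleo 1, 2, 3 and 5. Most of it was Lyz2 (1265, 716, 327 and 178 FPKM in those Aged Bleo libraries), while Ptprc, which encodes CD45, was at most 0.517 FPKM in any library. The sum of 8 fibroblast markers was 17.1 to 39.6 FPKM in Young Sham against 20.2 to 32.7 in Young Bleo, and 19.5 to 47.2 in Aged Sham against 11.7 to 16.8 in Aged Bleo. For 8 pericyte and smooth muscle markers the ranges were 38.8 to 87.8, 13.9 to 35.5, 19.6 to 38.5 and 10.1 to 16.6 FPKM in the same order. For 6 markers of alveolar epithelial type 1 cells, mostly Hopx, they were 176 to 242, 24.1 to 76.2, 159 to 334 and 33.0 to 152 FPKM, and for 5 mesothelial markers 0.629 to 2.57, 6.29 to 17.9, 4.56 to 14.7 and 1.26 to 7.79 FPKM, with Wt1 at 0 throughout Young Sham. For 6 markers of alveolar type 2 and airway cells the ranges overlapped between all groups (56.7 to 655 FPKM over all libraries), as did those for 4 lymphatic markers (21.2 to 69.7 FPKM). For 4 platelet markers they were 255 to 483, 100.3 to 231, 581 to 3160 and 58.9 to 447 FPKM. Every Aged Sham library was above every other library in this sum, and Aged Sham 14 stood apart within its group, with 3160 FPKM against 581 and 885. Aged Bleo 1 and 2 stood apart from Aged Bleo 3 and 5 in Lyz2 and in Cd68 (62.2 and 42.7 against 10.6 and 7.34 FPKM). They also did in Kdr, the VEGF receptor of ECs (29.5 and 30.1 against 103 and 78.7 FPKM). The leukocyte markers Ptprc, Cd3e and Cd79a were instead highest within Aged Bleo in library 5 (0.517, 4.38 and 1.23 FPKM). Young Bleo 17, 18 and 19 stood apart from Young Bleo 20 in Kdr (26.5, 32.01 and 29.3 against 103 FPKM). In bulk RNA, fewer cells of a type and less RNA per cell cannot be told apart. Per the study, the RNA came from the lungs that were also profiled for chromatin, in which a sample is 1 mouse, so the libraries of a group are taken as separate mice. The part of these markers in the results below was not tested.

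Levels of the members spanned several orders of magnitude in Young Sham. Egfl7, which encodes an EC-secreted matrix protein, ranked 42nd and Sparc, which encodes a collagen-binding matricellular protein, 62nd of all genes by FPKM, and Col4a1 and Col4a2 ranked 482nd and 609th. Averaged over the 16 libraries, 21 members were at 1 FPKM or more. Conversely 6 members, namely Col4a3, Col4a4, Col4a6, Lama2, Lama3 and Lamb3, stayed under 0.25 FPKM in every library, and Col4a5 did not exceed 0.303 FPKM.

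A gene was called higher or lower at a DESeq2 adjusted p of at most 0.05 and a log2 fold change of at least 0.5 in size, and edgeR's quasi-likelihood test was run beside it. In Young Bleo versus Young Sham, 13 of the 32 members were called higher and 4 lower, where 7.57% and 6.35% of all genes tested were, and the median log2 fold change was 0.439 over the members and 0.01 over all genes. In Aged Bleo versus Aged Sham, 9 members were called higher and 0 lower, where 3.4% and 2.45% of all genes were, with medians of 0.473 and 0.006, and 11 members were at an unadjusted p under 0.05. So were 3552 of all genes, where 18515 had an adjusted p. In Aged Sham versus Young Sham, 1 member was called higher and 3 lower, where 2.24% and 1.12% of all genes were, with medians of -0.408 and 0.021. In Aged Bleo versus Young Sham, 6 were called higher and 4 lower, where 6.58% and 3.14% of all genes were, with medians of 0.072 and 0.023. In Aged Bleo versus Young Bleo, 0 were called higher and 1 lower, where 0.585% and 0.406% of all genes were, with medians of -0.327 and 0.021, and 8 members were at an unadjusted p under 0.05. So were 2005 of all genes, where 18986 had an adjusted p. The 3 comparisons with Young Sham share its 5 libraries, so their values stand side by side and are not independent of each other.

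By edgeR the members called (higher and lower) were 12 and 2 in Young Bleo versus Young Sham, where 9.78% of all genes were called in either direction. They were 1 and 0 in Aged Bleo versus Aged Sham (0.797% of all genes), 1 and 1 in Aged Sham versus Young Sham (0.862%), 5 and 4 in Aged Bleo versus Young Sham (5.69%), and 0 and 0 in Aged Bleo versus Young Bleo (0.0437%). The counts of the 2 tests were thus close in the young response and in Aged Bleo versus Young Sham, and far apart in the aged response, where 8 of the 9 DESeq2 calls were not made by edgeR. Counts were simulated once, for Aged Sham versus Young Sham alone, with gene spreads estimated by edgeR. There DESeq2 called more unchanged genes than its threshold allows and edgeR did not. That draw did not cover the aged response, so it cannot decide which of those calls are right. At an unadjusted p under 0.05 edgeR had 10 members in Aged Bleo versus Aged Sham and 8 in Aged Bleo versus Young Bleo. Of the 18324 genes it tested, 2988 and 1604 were at that p in these comparisons.

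The calls of the aged response depended on single libraries of both aged groups. The share of all genes called is not given for the fits with 1 library left out. Whether this dependence is particular to the members was not tested. Of the 9 calls in Aged Bleo versus Aged Sham, 6 were lost without Aged Bleo 1, 3 without Aged Bleo 2, 4 without Aged Sham 13 and 6 without Aged Sham 15. Lama1 had no adjusted p without Aged Bleo 1 or without Aged Bleo 2 and is not among those losses. So 2 calls remained without Aged Bleo 1 and 5 without Aged Bleo 2. Without Aged Bleo 1 and 2 together, which had the highest leukocyte marker sums and low Kdr, a choice made after seeing the data, DESeq2 called 0 members in Aged Bleo versus Aged Sham, with 7 at an unadjusted p under 0.05. In that comparison 0.355% of all genes were called higher and 0.383% lower, and 2252 were at an unadjusted p under 0.05 (17752 had an adjusted p). This fit compares 2 libraries with 3, and no other pair was left out. All 9 log2 fold changes stayed above 0, at 1.68 for Nid2 (2.15 over all libraries), 1.41 for Lama1 (3.67), 1.10 for Loxl2 (2.13), 0.66 for Lama5 (1.22), 0.57 for Mmrn2 (0.87) and 0.49 for Col4a1 (1.25). They were at 0.23 for Agrn (0.97), 0.19 for Col4a2 (1.10) and 0.19 for Hspg2 (1.81). In Aged Bleo versus Young Sham it then called 1 member higher (Fn1) and 3 lower (Col4a4, Col8a1 and Nid1), where 1.36% and 0.933% of all genes were. In Aged Bleo versus Young Bleo it called 0 higher and 9 lower (Agrn, Col4a1, Col4a2, Fn1, Hspg2, Lama4, Loxl2, Mmrn2 and Sparc), where 3.2% and 3.33% of all genes were. In Aged Sham versus Young Sham, whose own libraries stayed the same, it called 1 higher (Fn1) and 6 lower (Agrn, Col4a1, Col4a2, Col8a1, Loxl2 and Nid1), where 3.02% and 1.55% of all genes were. The 9 calls in Aged Bleo over Aged Sham described below are thus calls over all 4 Aged Bleo libraries, and the part of other cells in them was not tested.

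**Figure D1:**
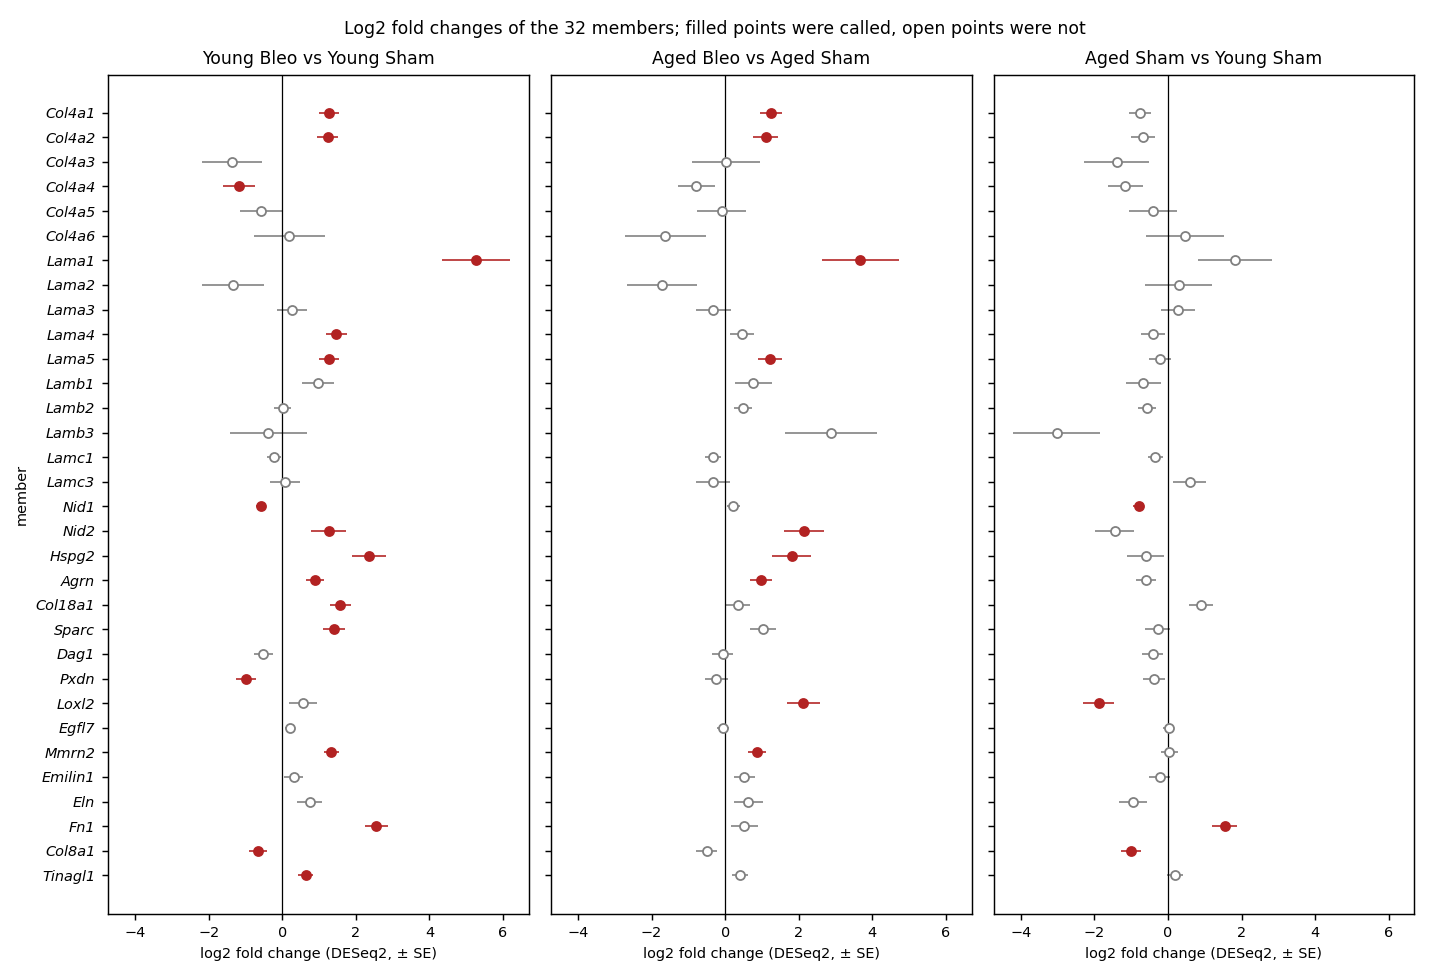
Log2 fold changes (horizontal axis, DESeq2, bars ± SE) of the 32 members (rows) in Young Bleo versus Young Sham, Aged Bleo versus Aged Sham and Aged Sham versus Young Sham. Filled points were called. The filled points lie mostly to the right in both bleomycin panels (13 of 17 and 9 of 9), and 3 of the 4 in the age panel lie to the left.

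Collagen IV RNA was almost wholly that of Col4a1 and Col4a2, and both were higher after bleomycin at either age. Col4a1 stood at 59.4, 69.9, 64.6, 43.4 and 53.1 FPKM in Young Sham and 105, 174, 136 and 154 in Young Bleo. In aged mice it stood at 24.2, 38.8 and 30.3 in Aged Sham and 113, 108, 48.3 and 49.9 in Aged Bleo. No Young Bleo value overlapped Young Sham, every Aged Sham value was below Young Sham, and in Aged Bleo libraries 1 and 2 were far above 3 and 5, which lay within the Young Sham range. Col4a2 stood at 50.4, 52.4, 46.4, 41.9 and 45.2 FPKM in Young Sham and 91.7, 132, 124 and 102 in Young Bleo. Its aged values were 22.8, 35.1 and 22.7 in Aged Sham and 91.6, 88.2, 34.6 and 34.4 in Aged Bleo, so that Aged Bleo 3 and 5 lay below the highest Aged Sham library. Both genes thus had 2 high and 2 low Aged Bleo libraries. Col4a1 rose in Young Bleo (log2 fold change 1.27 ± 0.27 SE, adjusted p = 9.2e-05, edgeR 0.0073) and in Aged Bleo over Aged Sham (log2 fold change 1.25 ± 0.31 SE, adjusted p = 0.0028, edgeR 0.055), which no single left-out library ended, but without Aged Bleo 1 and 2 together it was not called (log2 fold change 0.49, adjusted p = 0.36). Col4a2 rose likewise in Young Bleo (log2 fold change 1.23 ± 0.29 SE, adjusted p = 0.00059, edgeR 0.012) and over Aged Sham (log2 fold change 1.10 ± 0.33 SE, adjusted p = 0.022, edgeR 0.099), the latter call being lost without any 1 of Aged Bleo 1 or 2 or Aged Sham 13 or 15. With age alone neither passed the test, at log2 fold changes of -0.76 (adjusted p = 0.14) and -0.67 (adjusted p = 0.29). Both were called lower there in the fit without Aged Bleo 1 and 2 (adjusted p = 0.0032 and 0.0070), at the same fold changes and with the same Sham libraries. The aged and young bleomycin responses differed by -0.02 ± 0.41 (SE, log2) for Col4a1 and -0.13 ± 0.44 for Col4a2, neither of which passed the test. Without Aged Bleo 1 and 2 they differed by -0.78 for Col4a1 (adjusted p = 0.11) and -1.05 for Col4a2 (adjusted p = 0.012, called). In Aged Bleo versus Young Bleo the log2 fold changes were -0.78 ± 0.28 (adjusted p = 0.19) and -0.81 ± 0.31 (adjusted p = 0.22). Both genes were called lower there without Aged Bleo 1 or without Aged Bleo 2.

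The ratio of the 2 genes was much the same in every group, given here as a description. The log2 ratio of Col4a1 to Col4a2 FPKM was 0.282 ± 0.170 (SD, n = 5) in Young Sham against 0.327 ± 0.206 (n = 4) in Young Bleo, and 0.215 ± 0.177 (n = 3) in Aged Sham against 0.402 ± 0.126 (n = 4) in Aged Bleo, and the group ranges overlapped. These genes lie head to head on chromosome 8 of mm10 (Col4a1 at chr8:11198423-11312826 and Col4a2 at chr8:11312805-11449287), and the deposited gene models overlap by 22 bases at their starts. Their RefSeq promoter windows (GRCm38.p6, 250 bases before to 50 after the start) are shown because the pair shares them in part, and the 78 bases in capitals are the same stretch read on opposite strands.

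Col4a1 (chr8:11312777-11313076, minus strand): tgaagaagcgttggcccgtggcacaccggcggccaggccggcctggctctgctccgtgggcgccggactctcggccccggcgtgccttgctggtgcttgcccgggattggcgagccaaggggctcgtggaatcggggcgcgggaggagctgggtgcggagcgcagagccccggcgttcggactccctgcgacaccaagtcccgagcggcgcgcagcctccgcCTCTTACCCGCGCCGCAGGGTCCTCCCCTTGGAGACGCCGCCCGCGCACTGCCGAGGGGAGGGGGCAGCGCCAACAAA

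Col4a2 (chr8:11312555-11312854, plus strand): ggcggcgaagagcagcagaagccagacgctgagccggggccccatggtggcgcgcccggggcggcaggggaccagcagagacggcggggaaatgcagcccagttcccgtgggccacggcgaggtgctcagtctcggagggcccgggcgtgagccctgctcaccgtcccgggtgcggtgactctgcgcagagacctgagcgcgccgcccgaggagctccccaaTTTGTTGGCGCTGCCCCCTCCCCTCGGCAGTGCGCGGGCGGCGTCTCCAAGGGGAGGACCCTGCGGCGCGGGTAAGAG

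Of the 32 members, 21 matched a RefSeq promoter, with 28 windows among them. The letters AGGAAG, a form of the site bound by ERG and related ETS factors, were searched on both strands (CTTCCT on the other). They were in 13 of the 28 windows, from 11 members, where 35.4% of 32817 windows of all genes hold them. Other and shorter forms of that site were not searched. Neither window of the Col4a1 and Col4a2 pair holds the letters AGGAAG. The GC box GGGCGG, read on the other strand as CCGCCC, was in 18 of the 28 windows, from 16 members, where 35.6% of all windows hold it. These are descriptions of letters in 300 bases.

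The other collagen IV chains were near the floor. Col4a4, whose chain assembles with those of Col4a3 and Col4a5 in alveolar and kidney membranes, has a mean under 1 FPKM. It had 28 to 233 counts per library and 0.124 ± 0.0589 FPKM (mean ± SD, n = 5) in Young Sham against 0.0561 ± 0.0269 (n = 4) in Young Bleo, and 0.0505 ± 0.006297 (n = 3) in Aged Sham against 0.0323 ± 0.0133 (n = 4) in Aged Bleo. It fell in Young Bleo (log2 fold change -1.18 ± 0.44 SE, adjusted p = 0.044, edgeR 0.11), a call that 9 of 16 fits with 1 library left out lost, and in Aged Bleo versus Young Sham (log2 fold change -1.94 ± 0.44 SE, adjusted p = 0.00039, edgeR 0.022). Col4a3 ranged from 0.00136 to 0.124 FPKM, Col4a5 from 0.03099 to 0.303 and Col4a6 from 0 to 0.144, and none of these 3 was called in any comparison over all libraries. Without Aged Bleo 3, Col4a3 was called lower in Aged Bleo than in Young Sham, at a log2 fold change of -2.38 ± 0.83 (adjusted p = 0.035). It overlaps a non-coding gene with more counts (C430014B12Rik, mean of 432.5 counts against 43.8), and the strand setting of the counts is not stated.

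**Figure D2:**
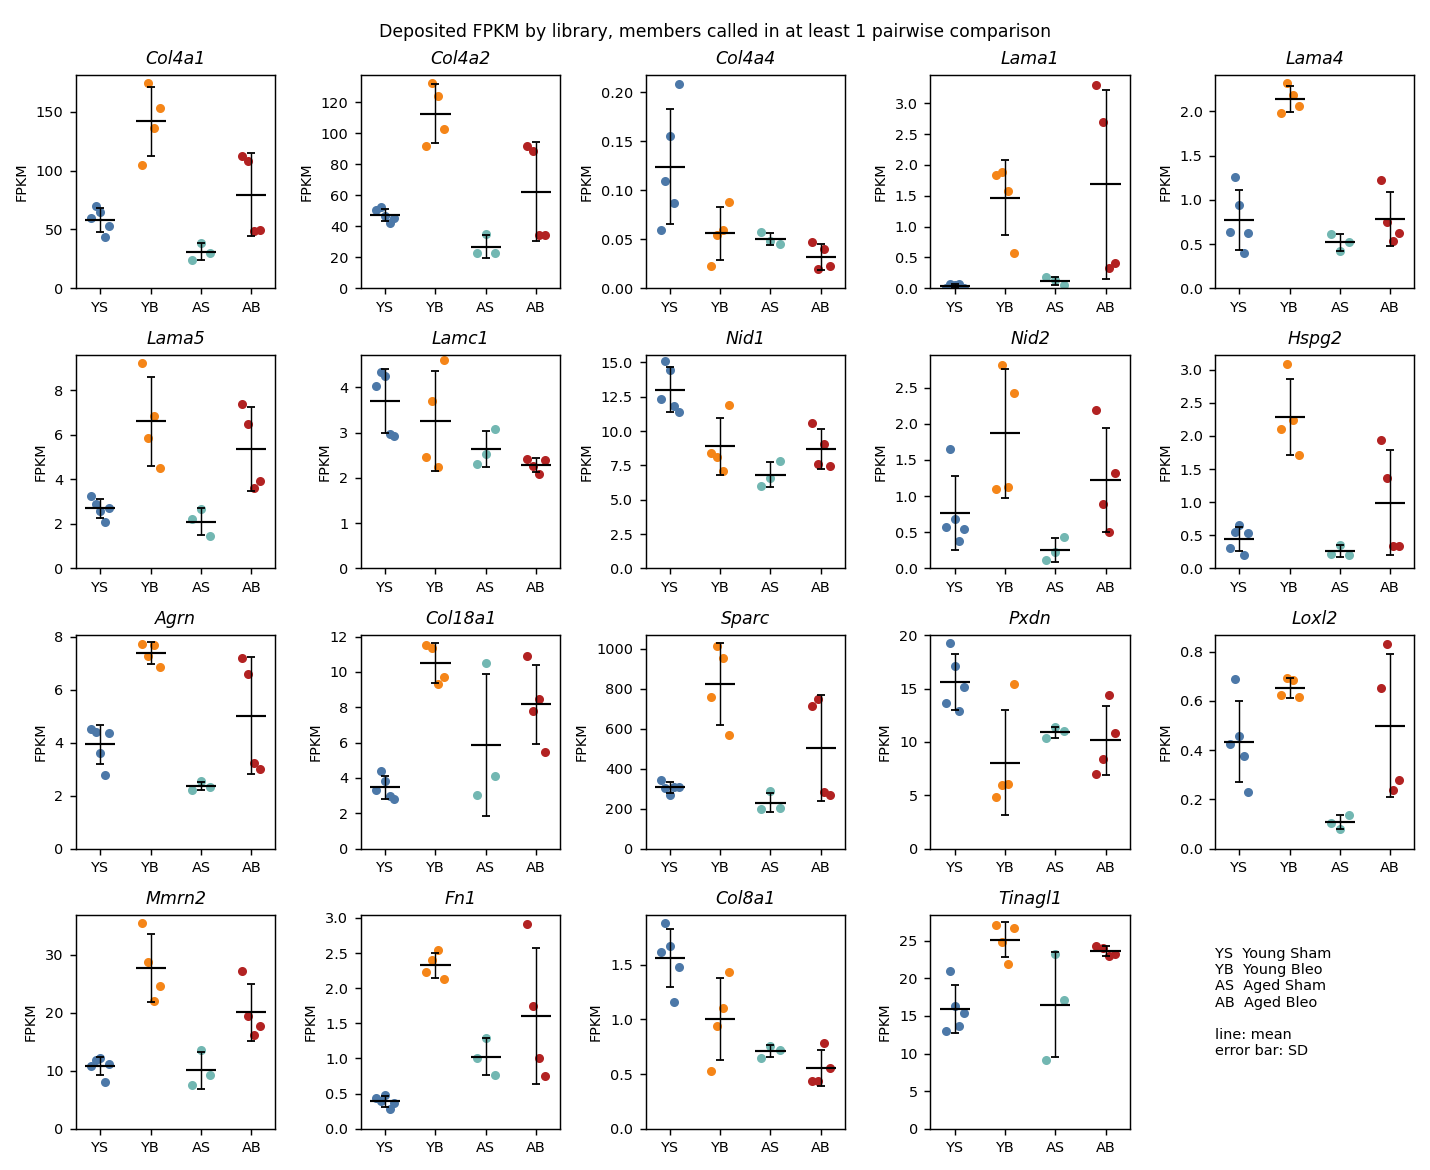
Deposited FPKM (vertical axes, linear, from 0) of the 19 members called in at least 1 pairwise comparison, by group (YS, Young Sham; YB, Young Bleo; AS, Aged Sham; AB, Aged Bleo). Points are libraries, lines are means and error bars SD. Col4a1, Col4a2, Lama1, Hspg2, Agrn, Sparc and Loxl2 split Aged Bleo into a high and a low pair, as in Col4a1 (113 and 108 against 48.3 and 49.9 FPKM).

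Among laminin alpha chains Lama5, Lama4 and Lama1 rose in young mice, and Lama1 changed by the largest fold of any member. Lama5 was the main chain at every age and treatment. It stood at 3.25, 2.897, 2.56, 2.099 and 2.69 FPKM in Young Sham and 9.22, 5.85, 6.86 and 4.496 in Young Bleo, without overlap. Its aged values were 2.23, 2.65 and 1.44 FPKM in Aged Sham and 7.39, 6.51, 3.62 and 3.92 in Aged Bleo, again without overlap. Lama5 rose in Young Bleo (log2 fold change 1.28 ± 0.28 SE, adjusted p = 0.00013, edgeR 0.0075) and in Aged Bleo over Aged Sham (log2 fold change 1.22 ± 0.31 SE, adjusted p = 0.0050, edgeR 0.061), the latter call being lost without Aged Bleo 1 or Aged Sham 15. Aged Bleo also exceeded Young Sham (log2 fold change 1.01 ± 0.28 SE, adjusted p = 0.0049, edgeR 0.032), which was lost without Aged Bleo 1 or 2.

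Lama4, the other chain typical of vessels, stood at 0.631, 1.26, 0.943, 0.394 and 0.619 FPKM in Young Sham and 1.99, 2.32, 2.18 and 2.06 in Young Bleo. In Aged Sham it stood at 0.613, 0.424 and 0.521 and in Aged Bleo at 1.22, 0.751, 0.534 and 0.621. All 4 Young Bleo libraries lay above all 12 others, and the Aged Bleo range lay within that of Young Sham. Lama4 rose in Young Bleo (log2 fold change 1.47 ± 0.29 SE, adjusted p = 2.8e-05, edgeR 0.0053) and was lower in Aged Bleo than in Young Bleo (log2 fold change -1.41 ± 0.31 SE, adjusted p = 0.0020, edgeR 0.12), the single member called in that comparison. DESeq2 kept the latter call in each of the 16 fits with 1 library left out, while edgeR did not make it. Its change over Aged Sham was 0.46 ± 0.33 (adjusted p = 0.5), and the responses of the 2 ages differed by -1.004 ± 0.44 (unadjusted p = 0.024 by DESeq2, adjusted p = 0.51).

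Lama1, an alpha chain known from embryonic and epithelial membranes, has a mean under 1 FPKM and is given by library because of its fold change, a choice made after its values were seen. It stood at 0.00589, 0.0623, 0.0595, 0.06302 and 0.000999 FPKM in Young Sham, 1 to 70 counts per library, and at 1.84, 1.88, 1.57 and 0.5801 in Young Bleo. It stood at 0.176, 0.1305 and 0.0561 FPKM in Aged Sham and 3.299, 2.69, 0.325 and 0.412 in Aged Bleo, where the counts ran from 479 to 4041. Bleo libraries of either age did not overlap their Sham group. Lama1 rose in Young Bleo (log2 fold change 5.26 ± 0.92 SE, adjusted p = 1.4e-06, edgeR 0.0029), in Aged Bleo over Aged Sham (log2 fold change 3.67 ± 1.05 SE, adjusted p = 0.014, edgeR 0.075), and in Aged Bleo over Young Sham (log2 fold change 5.50 ± 0.92 SE, adjusted p = 4.3e-07, edgeR 0.0031). The folds over Young Sham rest on counts near 0 and depend on the fit, and DESeq2 withheld an adjusted p for Lama1 in the fits without Aged Bleo 1 and without Aged Bleo 2. Without Aged Sham 15 the aged call was lost. The Aged Bleo libraries high in Lama1 were those with the highest leukocyte marker sums (1336 and 762 against 339 and 193 FPKM), and in Young Bleo the lowest Lama1 was in library 20, where that sum was lowest too (146 against 256 to 421 FPKM). The part of other cells in Lama1 was not tested.

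The make-up of the alpha chains is given as a description, with no test. Lama1 held 1.09% ± 0.974 (SD, n = 5) of the summed laminin alpha FPKM in Young Sham against 13.7% ± 4.32 (n = 4) in Young Bleo, and 3.92% ± 1.44 (n = 3) in Aged Sham against 17.3% ± 11.3 (n = 4) in Aged Bleo, with 27.4%, 26.9%, 6.88% and 8.15% in Aged Bleo 1, 2, 3 and 5. Lama4 held 20.2% ± 6.13, 21.6% ± 5.56, 18.1% ± 5.16 and 10.3% ± 2.07 in the same order of groups, and Lama5 73.4% ± 6.67, 63.1% ± 4.97, 70.4% ± 8.38 and 70.1% ± 8.21. In Aged Bleo the Lama4 share was below that of every other library (7.497% to 12.3% against 12.7% to 28.3%). Lama2 and Lama3 ranged from 0.000415 to 0.1204 FPKM and from 0.0507 to 0.2098 FPKM and were not called in any comparison. Without Aged Bleo 3, its highest Aged Bleo library, Lama2 was called lower in Aged Bleo than in Aged Sham, at a log2 fold change of -3.87 ± 0.78 (adjusted p = 9.7e-05).

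**Figure D3:**
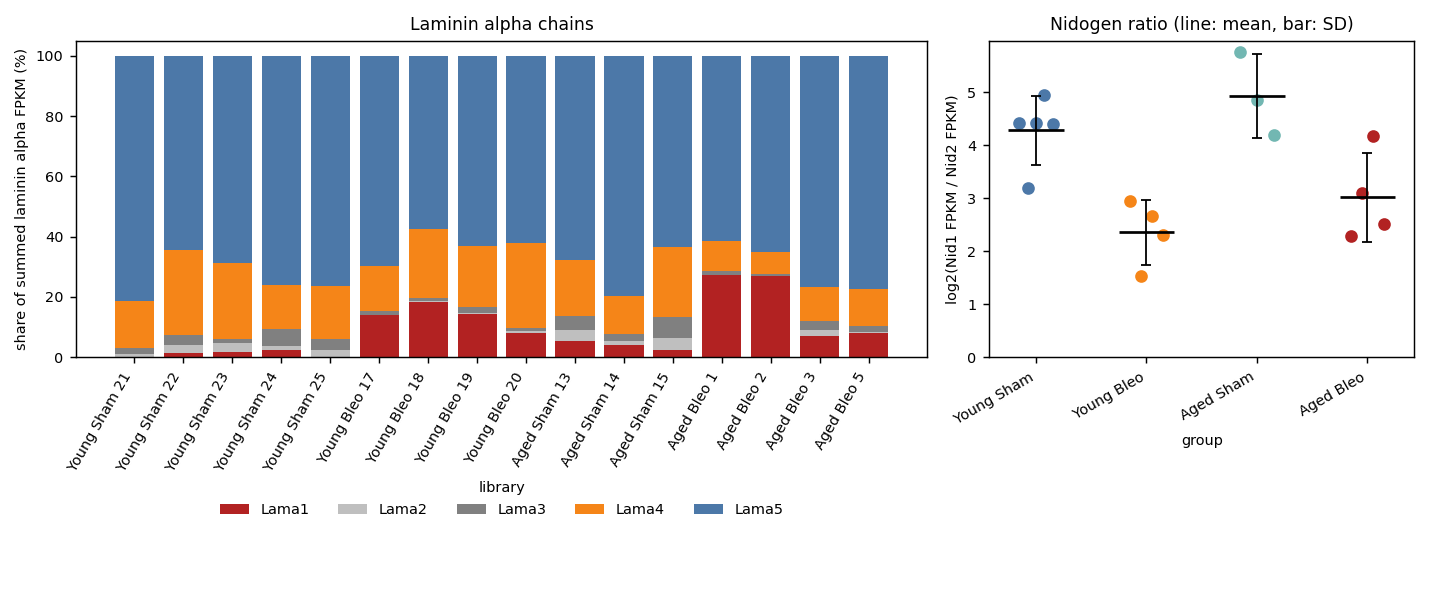
Left, share of the summed FPKM of the 5 laminin alpha chains (vertical axis, %) taken by each chain in each library, with Lama1 in red, Lama4 in orange and Lama5 in blue. Right, log2 ratio of Nid1 to Nid2 FPKM by group, with points for libraries, lines for means and error bars for SD, at 4.28 in Young Sham against 2.36 in Young Bleo, and 4.93 in Aged Sham against 3.01 in Aged Bleo.

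Of the 5 beta and gamma chains, 1 (Lamc1) was called over all libraries. Lamb2, the beta chain of mature vessels, was at 9.98 ± 2.62 FPKM (mean ± SD, n = 5) in Young Sham against 10.2 ± 3.61 (n = 4) in Young Bleo, and 6.06 ± 0.648 (n = 3) in Aged Sham against 9.31 ± 2.32 (n = 4) in Aged Bleo, with no call in any comparison and a log2 fold change of -0.58 ± 0.25 between the Sham groups (adjusted p = 0.21). Lamb1 was at 0.554 ± 0.318, 1.095 ± 0.263, 0.308 ± 0.0859 and 0.585 ± 0.401 FPKM in that order and was not called, at 0.97 ± 0.43 in Young Bleo (adjusted p = 0.12), and was called there without Young Sham 22, its highest Young Sham library, at a log2 fold change of 1.35 ± 0.42 (adjusted p = 0.014). Lamb3 did not exceed 0.155 FPKM and lies across Hsd11b1 and G0s2, both of which had more counts. Lamc1, the common gamma chain, stood at 4.03, 4.35, 4.26, 2.97 and 2.92 FPKM in Young Sham and 2.47, 3.71, 2.23 and 4.599 in Young Bleo. In Aged Sham it stood at 2.31, 2.53 and 3.09 and in Aged Bleo at 2.42, 2.26, 2.08 and 2.399, below every Young Sham library. Lamc1 fell in Aged Bleo versus Young Sham (log2 fold change -0.68 ± 0.19 SE, adjusted p = 0.0060, edgeR 0.039) and in no other comparison. Lamc3, a gamma chain of low level here, was at 0.585 ± 0.297, 0.617 ± 0.146, 0.796 ± 0.431 and 0.694 ± 0.336 FPKM and was not called.

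Of the 2 nidogens, Nid1 was called lower and Nid2 higher in Young Bleo. Nid1, the main linker of laminin to collagen IV, stood at 12.3, 15.1, 14.5, 11.8 and 11.4 FPKM in Young Sham and 8.43, 8.105, 7.101 and 11.9 in Young Bleo. It stood at 6.01, 6.62 and 7.81 FPKM in Aged Sham and 10.6, 7.63, 9.04 and 7.44 in Aged Bleo. Every aged library lay below every Young Sham library, and so did Young Bleo 17, 18 and 19, while Young Bleo 20 reached into the Young Sham range by FPKM but not by DESeq2-normalized count (6746 against 7089 or more). Against Young Sham, Nid1 was called lower in Aged Sham (log2 fold change -0.80 ± 0.16 SE, adjusted p = 8e-05, edgeR 0.023), in Young Bleo (log2 fold change -0.58 ± 0.14 SE, adjusted p = 0.0011, edgeR 0.020) and in Aged Bleo (log2 fold change -0.57 ± 0.14 SE, adjusted p = 0.0018, edgeR 0.029). No left-out library ended the first pair of calls, and without Aged Bleo 5 the third fell just under the fold threshold (log2 fold change -0.4962, adjusted p = 0.014). Within aged mice Nid1 was not called after bleomycin (log2 fold change 0.23 ± 0.16, adjusted p = 0.5), and the responses of the 2 ages differed by 0.81 ± 0.22, short of the threshold (adjusted p = 0.053, edgeR 0.43). It passed without any 1 of Aged Bleo 5, Aged Sham 15 or Young Bleo 20 (adjusted p = 0.033, 0.049 and 0.00098). Its RefSeq promoter window (GRCm38.p6) is shown as that of a member called lower in 3 comparisons, with the ETS core and the GC box in capitals.

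Nid1 (chr13:13437352-13437651, plus strand): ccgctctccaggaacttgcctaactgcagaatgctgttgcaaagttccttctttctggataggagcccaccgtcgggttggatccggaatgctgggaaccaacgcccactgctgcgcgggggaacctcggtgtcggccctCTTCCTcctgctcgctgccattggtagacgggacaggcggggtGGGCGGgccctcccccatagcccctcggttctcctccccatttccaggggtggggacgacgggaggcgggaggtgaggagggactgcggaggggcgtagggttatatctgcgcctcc

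Nid2, the second nidogen, stood at 0.577, 1.65, 0.678, 0.382 and 0.539 FPKM in Young Sham and 1.097, 2.82, 1.12 and 2.42 in Young Bleo. Its values were 0.111, 0.229 and 0.4298 in Aged Sham and 2.19, 0.894, 0.501 and 1.31 in Aged Bleo. Young Sham 22 was far above its group and overlapped Young Bleo, while the aged groups did not overlap. Nid2 rose in Young Bleo (log2 fold change 1.27 ± 0.48 SE, adjusted p = 0.049, edgeR 0.1), a call lost in 9 of the 16 fits with 1 library left out, and in Aged Bleo over Aged Sham (log2 fold change 2.15 ± 0.55 SE, adjusted p = 0.0042, edgeR 0.078), which was lost without Aged Bleo 1. Its deposited gene model overlaps 2700060E02Rik, which had more reads (mean of 3893 counts against 584), over 386 bases. The log2 ratio of Nid1 to Nid2 FPKM was 4.28 ± 0.649 (SD, n = 5) in Young Sham against 2.36 ± 0.614 (n = 4) in Young Bleo, and 4.93 ± 0.789 (n = 3) in Aged Sham against 3.01 ± 0.848 (n = 4) in Aged Bleo. At either age the Bleo libraries thus had a ratio below their Sham group, without overlap.

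All 3 heparan sulfate proteoglycans rose in young mice. Hspg2, which encodes perlecan, stood at 0.305, 0.544, 0.652, 0.207 and 0.528 FPKM in Young Sham and 2.11, 3.08, 2.23 and 1.71 in Young Bleo. In Aged Sham it stood at 0.224, 0.362 and 0.204 and in Aged Bleo at 1.94, 1.36, 0.335 and 0.3405. Young Bleo lay wholly above Young Sham, and Aged Bleo 3 and 5 lay within the Aged Sham range. Hspg2 rose in Young Bleo (log2 fold change 2.35 ± 0.46 SE, adjusted p = 2.2e-05, edgeR 0.0071) and over Aged Sham (log2 fold change 1.81 ± 0.53 SE, adjusted p = 0.017, edgeR 0.11), with the aged call lost without any 1 of Aged Bleo 1 or 2 or Aged Sham 13 or 15. Its RefSeq promoter window (GRCm38.p6), shown because this gene had the largest fold change among proteoglycans, holds 5 GC boxes in capitals and does not hold the letters AGGAAG.

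Hspg2 (chr4:137468553-137468852, plus strand): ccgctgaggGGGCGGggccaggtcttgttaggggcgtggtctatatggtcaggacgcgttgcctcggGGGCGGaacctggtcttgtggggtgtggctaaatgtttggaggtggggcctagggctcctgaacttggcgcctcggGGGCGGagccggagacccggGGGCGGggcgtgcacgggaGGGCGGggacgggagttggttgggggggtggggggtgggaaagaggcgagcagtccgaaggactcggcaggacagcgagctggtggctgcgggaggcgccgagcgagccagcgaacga

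Agrn, which encodes agrin, a ligand of dystroglycan, stood at 4.51, 4.404, 3.603, 2.78 and 4.35 FPKM in Young Sham and 7.703, 7.28, 7.69 and 6.85 in Young Bleo. It stood at 2.21, 2.54 and 2.33 FPKM in Aged Sham and 7.21, 6.61, 3.23 and 2.99 in Aged Bleo. Neither Bleo group overlapped its Sham group, although Aged Bleo 3 and 5 fell within the Young Sham range. Agrn rose in Young Bleo (log2 fold change 0.89 ± 0.25 SE, adjusted p = 0.0055, edgeR 0.027) and over Aged Sham (log2 fold change 0.97 ± 0.29 SE, adjusted p = 0.019, edgeR 0.086), and the aged call was lost without the same 4 libraries as that of Hspg2. Col18a1, the source of endostatin, stood at 3.34, 4.38, 3.82, 3.01 and 2.81 FPKM in Young Sham and 11.5, 11.4, 9.33 and 9.698 in Young Bleo. Its values were 3.04, 10.5 and 4.13 in Aged Sham and 10.9, 7.79, 8.47 and 5.47 in Aged Bleo. Aged Sham 14, the library with the most platelet markers, was as high as Young Bleo. Col18a1 rose in Young Bleo (log2 fold change 1.58 ± 0.29 SE, adjusted p = 5e-06, edgeR 0.0042) and in Aged Bleo over Young Sham (log2 fold change 1.25 ± 0.29 SE, adjusted p = 0.00063, edgeR 0.016). Over Aged Sham it was not called (log2 fold change 0.35 ± 0.33, adjusted p = 0.64), and it was called without Aged Sham 14, at a log2 fold change of 1.07 ± 0.25 (adjusted p = 0.00087). Whether platelet RNA bears on that library was not tested.

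**Figure D4:**
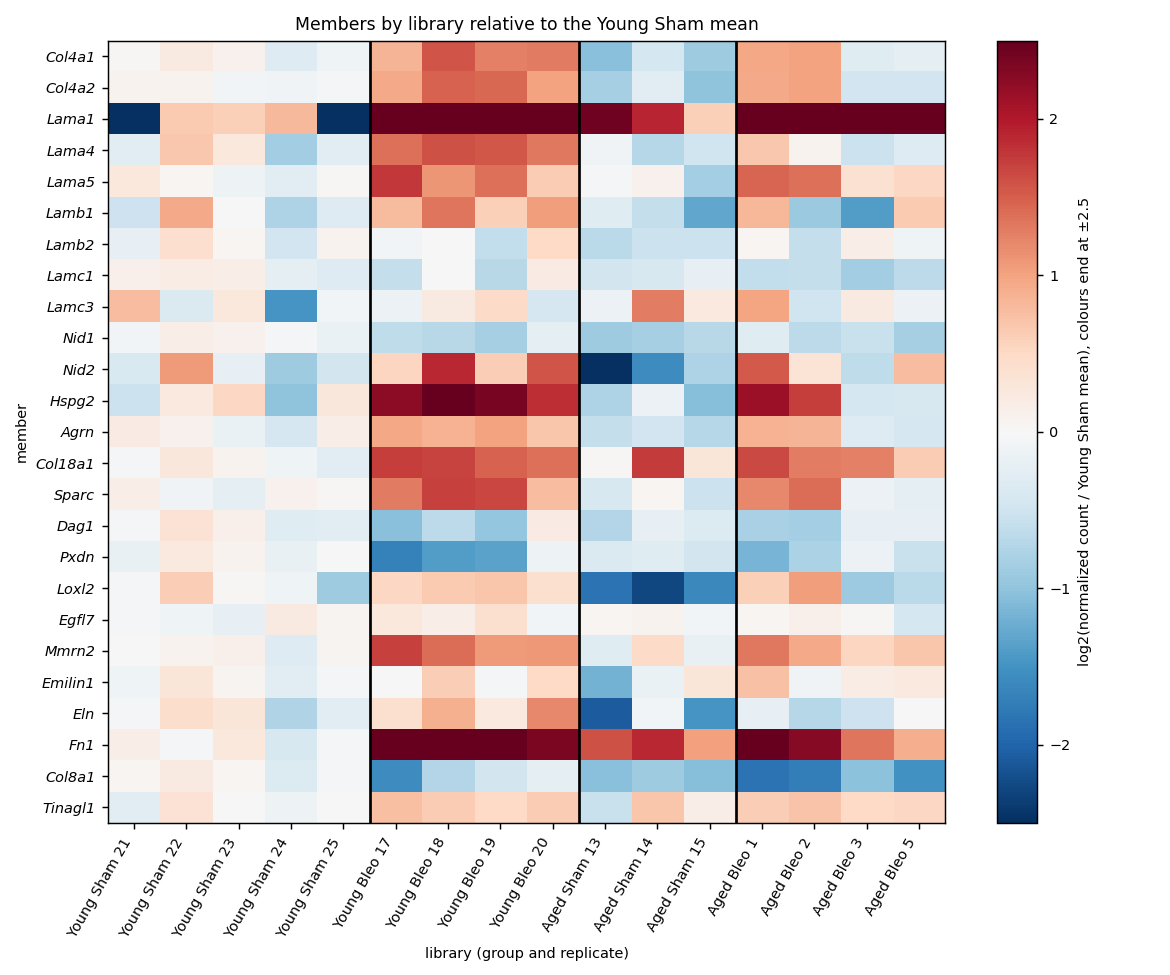
Log2 ratio of DESeq2-normalized count to the Young Sham mean for the 25 members with a mean of at least 0.4 FPKM (rows) in the 16 libraries (columns), red above and blue below, with colours ending at ±2.5. Aged Bleo 1 and 2 are red for Col4a1, Col4a2, Agrn, Hspg2 and Sparc, where Aged Bleo 3 and 5 are not, and Pxdn is blue in Young Bleo 17, 18 and 19 and near white in Young Bleo 20.

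Of the matricellular, receptor and crosslinking genes, Sparc and Loxl2 were higher in some bleomycin comparisons and Pxdn lower. Sparc stood at 345, 301, 270, 310 and 307 FPKM in Young Sham and 759, 1016, 954 and 567 in Young Bleo. It stood at 199, 287 and 204 FPKM in Aged Sham and 712, 749, 284 and 268 in Aged Bleo. Young Bleo lay above Young Sham, and Aged Bleo 3 and 5 were no higher than Aged Sham 14. Sparc rose in Young Bleo (log2 fold change 1.41 ± 0.31 SE, adjusted p = 0.00016, edgeR 0.0083), and in Aged Bleo over Aged Sham it missed the threshold (log2 fold change 1.02 ± 0.35, adjusted p = 0.055), which it passed without any 1 of Aged Bleo 3 or 5, Aged Sham 14 or Young Bleo 20. Pxdn, the peroxidase that forms the sulfilimine crosslinks of collagen IV, stood at 13.7, 19.2, 17.1, 12.9 and 15.1 FPKM in Young Sham and 4.86, 5.997, 6.03 and 15.4 in Young Bleo. Its values were 10.4, 11.4 and 10.999 in Aged Sham and 6.98, 8.39, 14.4 and 10.8 in Aged Bleo. Young Bleo 20 was at the level of Young Sham, and the other Young Bleo libraries were below every Sham library. Pxdn fell in Young Bleo (log2 fold change -0.996 ± 0.28 SE, adjusted p = 0.0044, edgeR 0.033), and was not called in Aged Bleo versus Aged Sham (log2 fold change -0.24 ± 0.32, adjusted p = 0.77). Without Young Bleo 20 its responses differed between the 2 ages, by a log2 fold change of 1.22 ± 0.29 (adjusted p = 0.0054). In the bleomycin libraries Pxdn was lowest in those with the lowest Kdr.

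Loxl2, a lysyl oxidase that crosslinks collagen IV, was lower with age and higher after bleomycin in aged mice. Its mean was under 1 FPKM, and its values are given by library because no single left-out library ended its 2 aged calls, a choice made after they were seen. Loxl2 stood at 0.423, 0.688, 0.458, 0.377 and 0.229 FPKM in Young Sham and 0.622, 0.691, 0.685 and 0.614 in Young Bleo. It stood at 0.104, 0.0804 and 0.138 FPKM in Aged Sham, below every other library, and 0.653, 0.831, 0.236 and 0.277 in Aged Bleo. Loxl2 fell in Aged Sham versus Young Sham (log2 fold change -1.88 ± 0.43 SE, adjusted p = 0.0014, edgeR 0.056) and rose in Aged Bleo over Aged Sham (log2 fold change 2.13 ± 0.45 SE, adjusted p = 0.00034, edgeR 0.044). The former was not called by limma (adjusted p = 0.077 and 0.18 at pseudocounts of 0.1 and 1). Leaving out Aged Bleo 1 and 2 together ended the latter (log2 fold change 1.10, adjusted p = 0.16). It was not called in Young Bleo versus Young Sham (log2 fold change 0.57 ± 0.38, adjusted p = 0.35), and the responses of the 2 ages differed by 1.55 ± 0.58 (adjusted p = 0.35). Dag1, which encodes the laminin receptor dystroglycan, was at 8.69 ± 2.01 FPKM (mean ± SD, n = 5) in Young Sham against 6.205 ± 3.101 (n = 4) in Young Bleo, and 5.94 ± 1.27 (n = 3) in Aged Sham against 6.19 ± 1.72 (n = 4) in Aged Bleo, and was not called. Without Young Bleo 20 it was called lower in Young Bleo, at a log2 fold change of -0.88 ± 0.21 (adjusted p = 0.00055).

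Among the other endothelial matrix genes, Fn1 and Mmrn2 rose and Col8a1 fell. Fn1, which encodes fibronectin, stood at 0.436, 0.3903, 0.481, 0.277 and 0.3703 FPKM in Young Sham and 2.23, 2.398, 2.54 and 2.14 in Young Bleo. It stood at 1.005, 1.298 and 0.769 FPKM in Aged Sham and 2.91, 1.75, 1.01 and 0.748 in Aged Bleo. Every library outside Young Sham was above every library within it, and Aged Bleo overlapped Aged Sham. Fn1 rose in Young Bleo (log2 fold change 2.56 ± 0.32 SE, adjusted p = 3.9e-12, edgeR 0.00088), was higher in Aged Sham than in Young Sham (log2 fold change 1.54 ± 0.35 SE, adjusted p = 0.0012, edgeR 0.037) and in Aged Bleo also exceeded Young Sham (log2 fold change 2.06 ± 0.32 SE, adjusted p = 2.3e-08, edgeR 0.0019). The call between the Sham groups was not made by limma (adjusted p = 0.094 and 0.22 at pseudocounts of 0.1 and 1). Over Aged Sham it was not called in Aged Bleo (log2 fold change 0.52 ± 0.36, adjusted p = 0.47). Without Aged Bleo 1 and 2 that value was -0.39 (adjusted p = 0.56). The bleomycin response of Fn1 was smaller in aged than in young mice (log2 fold change -2.03 ± 0.48 SE, adjusted p = 0.015, edgeR 0.34), the one member called in a test of that difference, where 0.137% of all genes were called higher and 0.24% lower, and 0.00546% in either direction by edgeR. Its call was lost without Aged Sham 14 or without Young Bleo 19, and 6 members were at an unadjusted p under 0.05 (5 by edgeR, which called 0). So were 1590 of all genes by DESeq2 (20380 had an adjusted p) and 1282 of 18324 by edgeR. Without Aged Bleo 1 and 2, 5 members were called in that test, all with the smaller response in aged mice and Fn1 at -2.96 (Col4a2, Fn1, Hspg2, Lama4 and Sparc). In that fit 1.47% of all genes were called higher and 2.33% lower.

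Mmrn2, which encodes an EC matrix glycoprotein that binds CD93, stood at 10.8, 11.9, 12.2, 8.16 and 11.2 FPKM in Young Sham and 35.5, 28.9, 21.99 and 24.6 in Young Bleo. It stood at 7.52, 13.7 and 9.21 FPKM in Aged Sham and 27.2, 19.5, 16.1 and 17.7 in Aged Bleo. Both Bleo groups lay above their Sham group without overlap. Mmrn2 rose in Young Bleo (log2 fold change 1.33 ± 0.21 SE, adjusted p = 3.7e-08, edgeR 0.0016), over Aged Sham (log2 fold change 0.87 ± 0.24 SE, adjusted p = 0.0093, edgeR 0.067), and in Aged Bleo over Young Sham (log2 fold change 0.91 ± 0.21 SE, adjusted p = 0.0005, edgeR 0.013). The call over Aged Sham was lost without Aged Bleo 1, Aged Sham 13 or Aged Sham 15.

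Col8a1, a short-chain collagen of vessel walls, stood at 1.62, 1.88, 1.67, 1.16 and 1.48 FPKM in Young Sham and 0.531, 0.944, 1.103 and 1.44 in Young Bleo. It stood at 0.651, 0.762 and 0.721 FPKM in Aged Sham and 0.435, 0.434, 0.785 and 0.554 in Aged Bleo, and every aged library was below every Young Sham library, while Young Bleo 20 overlapped Young Sham. Col8a1 fell in Aged Sham versus Young Sham (log2 fold change -0.99 ± 0.27 SE, adjusted p = 0.012, edgeR 0.095), in Young Bleo (log2 fold change -0.67 ± 0.25 SE, adjusted p = 0.044, edgeR 0.094) and in Aged Bleo versus Young Sham (log2 fold change -1.49 ± 0.25 SE, adjusted p = 2.5e-07, edgeR 0.0034). The first call was not made by limma (adjusted p = 0.081 and 0.058 at pseudocounts of 0.1 and 1). It was lost without Aged Sham 13 or Aged Sham 15 and the second in 9 of the 16 fits with 1 library left out, while the third held in each of them. Tinagl1, a laminin-binding matrix protein, stood at 12.99, 21.05, 16.3, 13.7 and 15.4 FPKM in Young Sham and 27.1, 24.9, 21.9 and 26.7 in Young Bleo. Its values were 9.196, 23.2 and 17.2 in Aged Sham and 24.3, 24.1, 23.003 and 23.2 in Aged Bleo. The Bleo libraries of both ages were above Young Sham, and Aged Sham ran from below to above it. Tinagl1 rose in Young Bleo (log2 fold change 0.64 ± 0.20 SE, adjusted p = 0.014, edgeR 0.041), lost without Young Bleo 17, and in Aged Bleo over Young Sham (log2 fold change 0.59 ± 0.20 SE, adjusted p = 0.035, edgeR 0.079), lost in 7 of the 16 fits. Over Aged Sham it was called in Aged Bleo only without Aged Sham 14, at a log2 fold change of 0.74 ± 0.21 (adjusted p = 0.0093).

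Egfl7, Emilin1 and Eln were not called in any comparison. Egfl7 was at 394 ± 30.7 FPKM (mean ± SD, n = 5) in Young Sham against 461 ± 42.6 (n = 4) in Young Bleo, and 365 ± 15.9 (n = 3) in Aged Sham against 380 ± 55.9 (n = 4) in Aged Bleo, and it overlaps the gene Gm20532 (mean of 21110 counts against 156100). Emilin1, an elastic fibre glycoprotein, was at 8.19 ± 1.52, 10.3 ± 2.63, 6.48 ± 3.34 and 10.03 ± 2.67 FPKM in the same order. Eln, which encodes elastin, was at 30.04 ± 10.2, 51.04 ± 17.95, 14.05 ± 10.3 and 23.7 ± 5.95 FPKM. All 4 Young Bleo values of Eln lay above the 4 of Aged Bleo, at a log2 fold change of -1.07 ± 0.37 that did not pass the test over all libraries (adjusted p = 0.14). Without Aged Sham 14, its highest Aged Sham library, Eln was called lower with age between the Sham groups, at a log2 fold change of -1.74 ± 0.33 (adjusted p = 8.1e-05). In the same fit it was called higher in Aged Bleo over Aged Sham, at a log2 fold change of 1.41 ± 0.34 (adjusted p = 0.0021). It was also called higher in Young Bleo (0.74, adjusted p = 0.036) and lower in Aged Bleo than in Young Bleo (-1.07, adjusted p = 0.018).

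Other genes of the pathway were counted from 4 lists, whose counts in Young Bleo are to be read beside the 7.57% of all genes called higher and the 6.35% called lower there. The corresponding shares were 3.4% and 2.45% in Aged Bleo versus Aged Sham, and 2.24% and 1.12% in Aged Sham versus Young Sham. Of 20 genes that fold, modify or export collagen, Fkbp10, an endoplasmic reticulum prolyl isomerase, and P4ha2, a prolyl hydroxylase subunit, rose in Young Bleo (log2 fold changes 0.98 ± 0.22 and 1.46 ± 0.23 SE), and Colgalt2, a collagen galactosyltransferase, fell (-0.85 ± 0.21). These shares are near those of all genes. In Aged Sham versus Young Sham, P4ha2 was called higher (0.84 ± 0.25, adjusted p = 0.030, edgeR 0.11) and Serpinh1, the collagen chaperone HSP47, lower (-1.03 ± 0.20, adjusted p = 4.1e-05, edgeR 0.019). Serpinh1 was at 65.2 ± 12.2 FPKM (SD, n = 5) in Young Sham against 68.7 ± 17.7 (n = 4) in Young Bleo, and 29.2 ± 7.18 (n = 3) in Aged Sham against 46.2 ± 4.05 (n = 4) in Aged Bleo. Over Aged Sham, 1 of the 20 was called in Aged Bleo (Fkbp10, 0.84 ± 0.25, adjusted p = 0.017, edgeR 0.079).

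Of 17 receptors, 3 rose in Young Bleo (Ddr1, a collagen receptor, Itgb4, a laminin integrin chain, and Sdc1, a syndecan) and 5 fell (Bcam, a laminin alpha 5 receptor, the integrin chains Itga1, Itga2 and Itga3, and Sdc2). By edgeR 3 were called higher and 3 lower, without Itga1 (adjusted p = 0.086) and Itga2 (0.091). In Aged Sham versus Young Sham 1 receptor was called, the syndecan Sdc4, higher (0.82 ± 0.23, adjusted p = 0.014, edgeR 0.082). Itga3 went from 52.3 ± 6.11 FPKM (SD, n = 5) in Young Sham to 16.2 ± 11.4 (n = 4) in Young Bleo (log2 fold change -1.74 ± 0.40, adjusted p = 0.00031, edgeR 0.017), and Bcam from 182 ± 20.0 to 105 ± 32.3 FPKM (-0.83 ± 0.21, adjusted p = 0.0012, edgeR 0.019). In Aged Bleo versus Aged Sham, Sdc1 was called higher (0.79 ± 0.22, adjusted p = 0.013, edgeR 0.078), and Sdc2 (-1.28 ± 0.31, adjusted p = 0.0020, edgeR 0.051) and Dmd (-1.51 ± 0.49, adjusted p = 0.039, edgeR 0.13) were called lower. Of 20 further basement membrane components, 18 of which had enough reads in the young comparison, 6 rose in Young Bleo (Col15a1, Fbln2, Fbln5, Ntn1, Thbs4 and Vwa1) and Ntn4 fell. Ntn4 was not called by edgeR (adjusted p = 0.087). Vwa1, a perlecan-binding protein, went from 5.58 ± 0.966 FPKM (SD, n = 5) to 27.8 ± 9.77 (n = 4). In aged mice it went from 3.62 ± 1.69 (n = 3) to 15.6 ± 11.2 (n = 4) and was called higher (log2 fold change 2.02 ± 0.48, adjusted p = 0.0020, edgeR 0.065), as were Ntn1 (1.01 ± 0.28, adjusted p = 0.0094, edgeR 0.068) and Lad1, which was at 0 FPKM in Aged Sham (adjusted p = 0.0095, edgeR 0.14). Fbln1, a fibulin also made by fibroblasts, was called lower (-1.64 ± 0.42, adjusted p = 0.0042, edgeR 0.059). Among genes of dystroglycan glycosylation, a list that is not reported in full here, Pomgnt2 was called higher in Aged Bleo over Aged Sham. The fibroblast marker sum was lowest in Aged Bleo (11.7 to 16.8 FPKM), and its part in Fbln1 was not tested. Without Aged Bleo 1 and 2, 0 of the 9 genes of these further lists called in Aged Bleo over Aged Sham were called. Some log2 fold changes stayed close to those over all libraries there, such as 0.91 for Sdc1, 0.83 for Pomgnt2, -1.23 for Dmd and -1.26 for Fbln1. Others were smaller, such as 0.33 for Fkbp10, 0.29 for Ntn1 and 0.62 for Vwa1. In Aged Bleo versus Young Bleo, where 0.406% of all genes were called lower, Fbln1 was called lower (-2.15 ± 0.39, adjusted p = 3.2e-05, edgeR 0.057). So was Sdc1 (-0.72 ± 0.20, adjusted p = 0.039, edgeR 0.27). Without Aged Bleo 1 and 2, Fbln1 was still called there (-1.78, adjusted p = 0.0035) and Sdc1 was not (-0.60, adjusted p = 0.15).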

How the data were processed

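RNA-seq libraries of sorted lung ECs (16, in 4 groups) were analysed from the merged table of 43346 genes. Per the labels and the study's methods, the authors aligned paired reads with STAR 2.5.2b to mm10 and counted reads per gene with featureCounts, and the deposited counts are raw. The FPKM values in the same table were computed by the authors from counts, gene length and a library total. Neither the annotation release nor the strand setting nor how multi-mapping reads were counted is given in the sources used here, so reads of overlapping genes cannot be told apart. The library kit is described differently in the labels (SMART-Seq v4 with Nextera) and in the methods (TruSeq poly(A)).

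Counts were fitted with DESeq2 1.42.0 in R 4.3.3 over all 16 libraries, with the 4 groups as the model, and adjusted p-values (Benjamini-Hochberg) cover all genes tested. DESeq2 is the main test because the study's methods use it. A call needed an adjusted p of at most 0.05 and a log2 fold change of at least 0.5 in size. Alternatives were edgeR 4.0.16 (quasi-likelihood, filterByExpr), TMM size factors, a filter of 10 counts in 3 libraries, the compared groups alone, limma 3.58.1 on log2(FPKM + 0.1) and log2(FPKM + 1), each library left out, and, chosen after seeing the data, Aged Bleo 1 and 2 left out. Counts were simulated once for Aged Sham versus Young Sham, with gene spreads estimated by edgeR. In that draw DESeq2 called more unchanged genes than its threshold allows and edgeR did not. Values by edgeR are given beside the members' calls. Total counts ranged from 20.9 to 71.0 mega-counts. The members and lists were chosen with earlier results of these data known. Values are given by library for members called in at least 1 of 5 pairwise comparisons with a mean of at least 1 FPKM, and for Col4a1 and Col4a2. Other members are given by group means or ranges, except Lama1 and Loxl2. The calls of the dystroglycan glycosylation list in Young Bleo are not reported here.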

Additional observations from a re-analysis of the deposited data

Results flagged for a closer look

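Groups of 4 or 5 libraries were searched for a single library far from the rest of its group in DESeq2-normalized count, and 3 of 96 groups held one, where chance gives about 1 in 20. Lama2 stood at 160.2 in Aged Bleo 3 against 0.737 to 24.3 in the other Aged Bleo libraries. Nid2 stood at 783.5 in Young Sham 22 against 200.03 to 324 in the rest of Young Sham. Pxdn stood at 13740 in Young Bleo 20 against 4632 to 5947 in the other Young Bleo libraries, the same library in which Kdr was 103 FPKM against 26.5 to 32.01. The bleomycin response of Fn1 differed between ages by -2.03 (log2, aged minus young) in a DESeq2 test of the difference itself, which edgeR did not call.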

How the results depend on the processing

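The 6 counts of members called were recomputed under each alternative, except that the difference of the responses uses all 4 groups and was not refitted on the compared groups alone. None of the 42 single-member calls reversed its direction under the alternatives run. Calls of the further lists were recomputed by edgeR and without Aged Bleo 1 and 2 only. Without Aged Bleo 1 and 2 together the counts were 7 in Aged Sham versus Young Sham (4 in the full fit), 0 in Aged Bleo versus Aged Sham (9), 4 in Aged Bleo versus Young Sham (10), 9 in Aged Bleo versus Young Bleo (1) and 5 in the difference of the responses (1). The cause was not tested. By edgeR they were 2 in Aged Sham versus Young Sham, 1 in Aged Bleo versus Aged Sham, 0 in Aged Bleo versus Young Bleo and 0 in the difference. With the compared groups alone they were 7 in Aged Sham versus Young Sham, 5 in Aged Bleo versus Aged Sham and 2 in Aged Bleo versus Young Bleo. With limma at pseudocounts of 0.1 and 1 they were 1 and 1 in Aged Sham versus Young Sham, 4 and 3 in Aged Bleo versus Aged Sham and 0 and 0 in the difference, and 0 in Aged Bleo versus Young Bleo at 0.1. Leaving out each library in turn gave 4 to 5 in Aged Sham versus Young Sham, 14 to 17 in Young Bleo versus Young Sham, 2 (without Aged Bleo 1) to 13 (without Aged Sham 14) in Aged Bleo versus Aged Sham, 7 (without Aged Bleo 1) to 15 (without Aged Bleo 3) in Aged Bleo versus Young Sham, 1 to 4 (without Aged Bleo 1) in Aged Bleo versus Young Bleo and 0 to 3 in the difference. Fits without 1 library also called members not called over all libraries, namely Col18a1, Eln, Lamb3 and Nid2 in Aged Sham versus Young Sham, Dag1, Eln and Lamb1 in Young Bleo, Col18a1, Eln, Lama2, Sparc and Tinagl1 in Aged Bleo over Aged Sham, Col4a3, Hspg2, Lama2, Pxdn and Sparc in Aged Bleo versus Young Sham, Col4a1, Col4a2, Col8a1, Eln, Hspg2 and Pxdn in Aged Bleo versus Young Bleo, and Col18a1, Nid1 and Pxdn in the difference. TMM size factors and the filter of 10 counts each lost 1 of the 42 single-member calls. The share of all genes called is given for the full fit, edgeR and the fit without Aged Bleo 1 and 2 only. Whether the other shifts in these counts are particular to the members was not tested. No paired analysis was possible because the replicate numbers do not repeat between groups. Members under 0.25 FPKM are limited by depth.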
